A study of Petunia x hybrida with 7 samples.

Results

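The subject is a set of 1118 PhDEF binding sites that were found both in petals of the wild type and in petals of the petunia chimera star. PhDEF is a transcription factor of the MADS-domain family that is needed for petals to form. Each site is a pair of overlapping peaks, 1 from the list of each genotype. Peaks were paired when they shared at least 1 bp, and a pair was kept when neither peak overlapped a further peak of the other list. The pairs hold 35.7% of the 3134 wild-type peaks and 50.5% of the 2216 star peaks, out of 9626 peaks in the 3 lists of the series. A further 5 wild-type and 7 star peaks overlapped several peaks or shared a partner, and they were left out. The other 2011 wild-type and 1091 star peaks had no overlap, and only their number is given here.

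Both groups were petals of cultivar R27 of Petunia x hybrida, with tube and limb, taken at flower stage 8. The plants grew in days of 16 h at 22 °C and nights of 8 h at 18 °C. Star petals are a chimera with a mutant phdef epidermis and a wild-type mesophyll, whereas both tissues are wild-type in the other group. Chromatin was cross-linked with disuccinimidyl glutarate and formaldehyde, precipitated with an antibody against PhDEF and sequenced (ChIP-seq), in 2 biological replicates per genotype. Whole petals were used, so chromatin of the mutant epidermis is part of every star sample. Less protein at a site in every cell and binding in fewer cells cannot be told apart in such material. The comparison sets PhDEF binding in the whole petal beside binding in petals whose wild-type PhDEF allele is in the mesophyll.

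PhDEF belongs to the B class of floral regulators, which work as dimers of a DEF-type and a GLO-type protein and bind CArG boxes in DNA. Without their function, petals turn towards sepal identity. The petal epidermis and mesophyll descend from different cell layers of the floral meristem, which is why a plant can be mutant in one and wild-type in the other. The files pair no peak with a gene, and no genome was used here, so sites are named by scaffold and position in the authors' assembly, counted from 1, and neither genes nor sequences are given.

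The authors had merged the replicates of each genotype into a single list, keeping peaks with an irreproducible discovery rate (IDR) of at most about 0.1. The IDR is an estimate, from the agreement of 2 ranked replicates, of how many of the peaks kept would not be found again. Each listed peak carries the authors' signal value, which is the sum of 1 value per replicate, and both replicate values stand in columns of their own. These are called the first and the second column, since nothing says which replicate is which. Signals of different lists were not compared, as their scale is not stated. Every signal was turned into a percentile inside its own list, where 100 is the strongest peak. A shift is the star percentile minus the wild-type percentile, so a positive shift means a higher place in the star list. It is a change of place among the peaks of a list and not of the amount of binding. Since there is 1 list per genotype, no test between genotypes was made. Within a pair, 2 star columns can be set against 2 wild-type columns, for which the smallest two-sided p of an exact permutation test is 0.333. Intervals are 95% intervals over pairs (exact Clopper-Pearson for shares, order statistics for medians). They cover sampling of pairs only, because the pairs of a list come from the same 2 libraries. Read depth is unknown, because the lists give no counts.

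The paired sites came from the upper part of both lists, with median percentiles of 70.6 in the wild type and 66.7 in star. The peaks of a pair were also close in position, which the pairing by overlap fixes in part. The shorter peak of a pair lay wholly inside the longer one in 686 of 1118 pairs, and the median shared length was 344 bp. Summits were a median of 19 bp apart in the 1096 pairs with both summits inside the listed interval, and 93.2% of them lay within 100 bp. Taken from single columns, the median summit distance was 23 bp between the wild-type replicates, 25 bp between the star replicates and 23.5 to 27 bp between a star and a wild-type column. Summit positions thus differed between genotypes by about as much as between replicates. At the limit of the pairing, the shortest overlaps were 51, 136 and 165 bp, and the nearest unpaired neighbours were 132 and 186 bp away. At a stricter global IDR of at most 0.02, 669 pairs passed in both lists, 181 in the wild type alone, 135 in star alone and 133 in neither.

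Sites changed place between the lists in both directions. The median shift was small, at -1.78 points (95% interval -3.04 to -0.70), but the middle 50% of shifts ran from -17.6 to 13.3 points and the extremes were -86.2 and 79.4. The median absolute shift was 15.2 points (14.1 to 16.5). A shift of over 25 points was seen in 369 pairs, or 33.0% (30.3 to 35.8%). Of these, 159 ranked higher (14.2% of all pairs) and 210 lower (18.8%) in star. In single columns of the same pairs, a difference of over 25 points was seen between replicates in 22.9% (wild type) and 30.7% (star). Between a star and a wild-type column such a difference was seen in 34.8 to 38.3% of pairs. Across the 1118 pairs, which share their libraries, Spearman's rho of the summed signals was 0.51. The sign of the median shift depended on the ranking. It was 1.81 points with only as many of the strongest wild-type peaks ranked as the star list holds (2216), and 0.22 points when percentiles were taken among paired peaks only.

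Replicate error was read from the same pairs, column against column. The median absolute difference in percentile was 10.1 points between the wild-type columns and 14.3 points between the star columns. Between a star and a wild-type column it was 17.8, 18.6, 16.7 and 17.8 points in the 4 possible combinations. Each of the 4 values was above both replicate values, and the closest approach was 16.7 against 14.3 points for star. The rank correlations had the same order, with rho of 0.74 between the wild-type columns, 0.61 between the star columns and 0.44 to 0.45 between genotypes. The replicate columns of a list had passed the authors' IDR filter, which selects for agreement, whereas nothing selected for agreement between the lists. Its part in the difference was not tested.

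**Figure D1:**
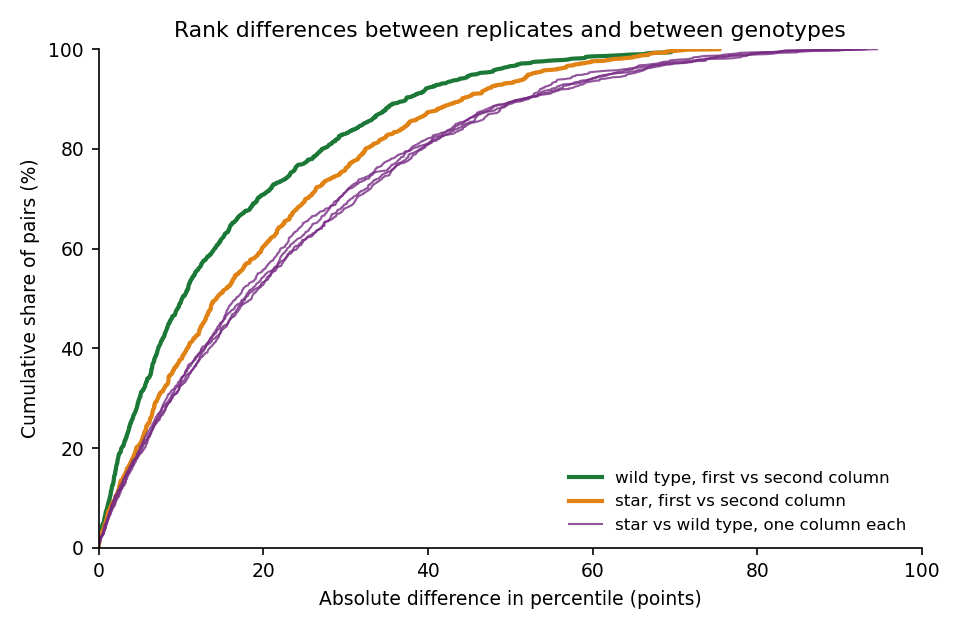
Cumulative share of the 1118 pairs (y axis, percent) against the absolute difference in percentile (x axis, points) between the wild-type replicate columns (green), between the star replicate columns (orange) and between each star and each wild-type column (4 purple lines). The purple lines lie to the right, with medians of 16.7 to 18.6 points against 10.1 in the wild type and 14.3 in star.

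Pairs were then sorted by whether their replicate columns stood apart. In 216 pairs both star percentiles were above both wild-type percentiles, which is 19.3% of all pairs tested. In 348 pairs, or 31.1%, both were below. The columns overlapped in the remaining 554 pairs. If the columns of a pair were exchangeable between genotypes, they would stand apart, above or below, in a share of about 0.333 of pairs. The IDR filter selects for agreement within a list, and its part in these counts was not tested. A pair with columns apart is therefore not by itself a site that differs between genotypes. The split between the directions followed the ranking, since percentiles among paired peaks gave 24.2% above and 25.0% below, and the wild-type list at the star length gave 27.8% above and 21.2% below. At the top of the lists very small shifts can keep the columns apart. With a shift of over 25 points required as well, 121 pairs (10.8%) ranked higher in star and 181 (16.2%) ranked lower.

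**Figure D2:**
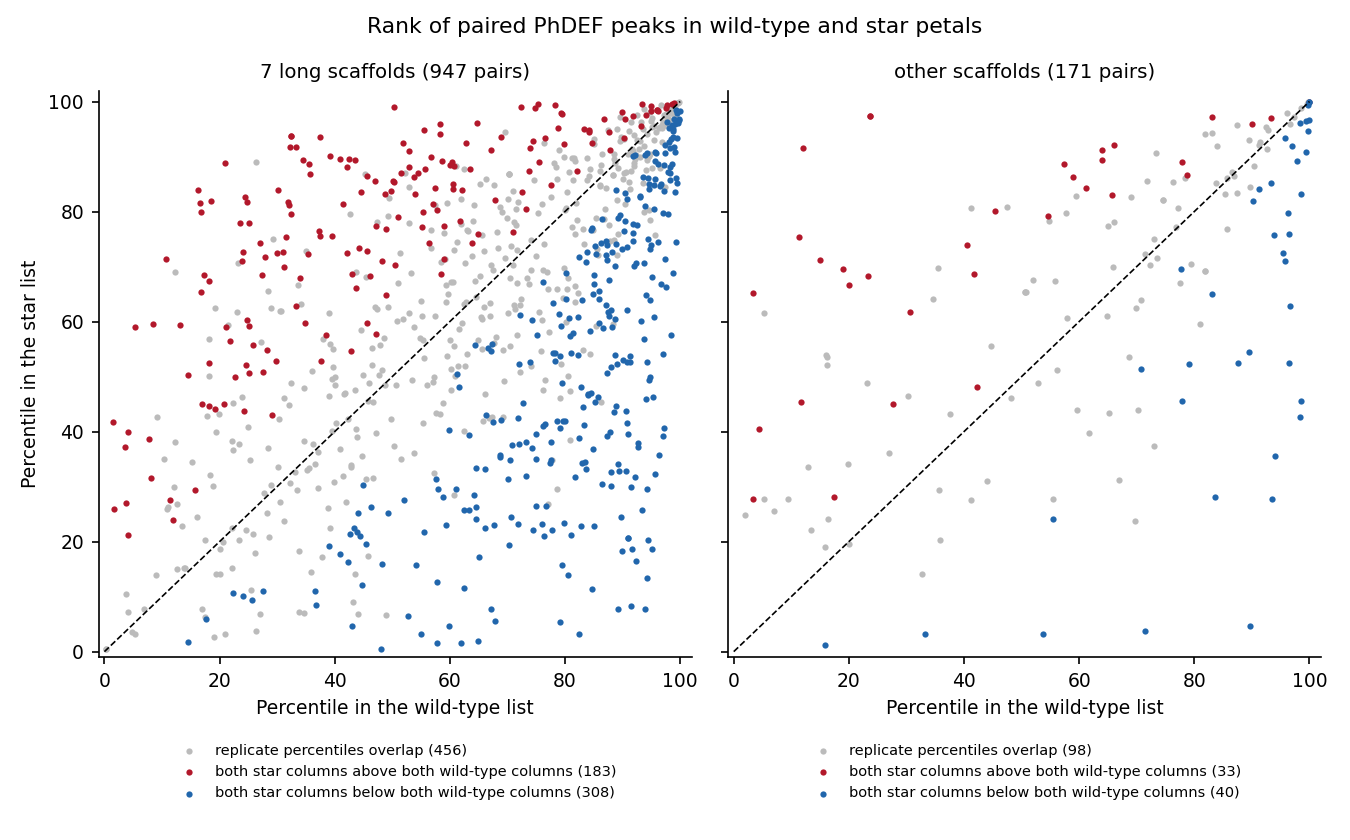
Percentile of each paired peak in the wild-type list (x axis) and in the star list (y axis), for the 947 pairs on the 7 long scaffolds and the 171 pairs on other scaffolds; 100 is the strongest peak and the dashed line marks equal rank. Red points (183 and 33) have both star replicate percentiles above both wild-type ones, blue points (308 and 40) have both below, and grey points overlap.

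Direction of the shift varied with rank. Of the 314 peaks in the strongest 10% of the wild-type list, 252 were paired, and their median shift was -5.13 points with a middle 50% from -18.5 to -0.59. Of these 252 pairs, 143 (56.7%) had both star columns below both wild-type columns and 17 (6.75%) had both above. The shares of all pairs were 31.1% below and 19.3% above. Between the 80th and the 90th percentile the median shift was -13.3 points over 176 pairs. Among the weakest 10% of wild-type peaks 27 were paired, with a median shift of 23.3 points. Grouped by star rank, the order was reversed. The 187 pairs in the strongest 10% of star peaks had a median shift of 1.07 points, and the 41 pairs in the weakest 10% had one of -34.3 points. Grouping pairs by one of the ranks that make up the shift fixes part of this pattern, which is therefore a description only.

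**Figure D3:**
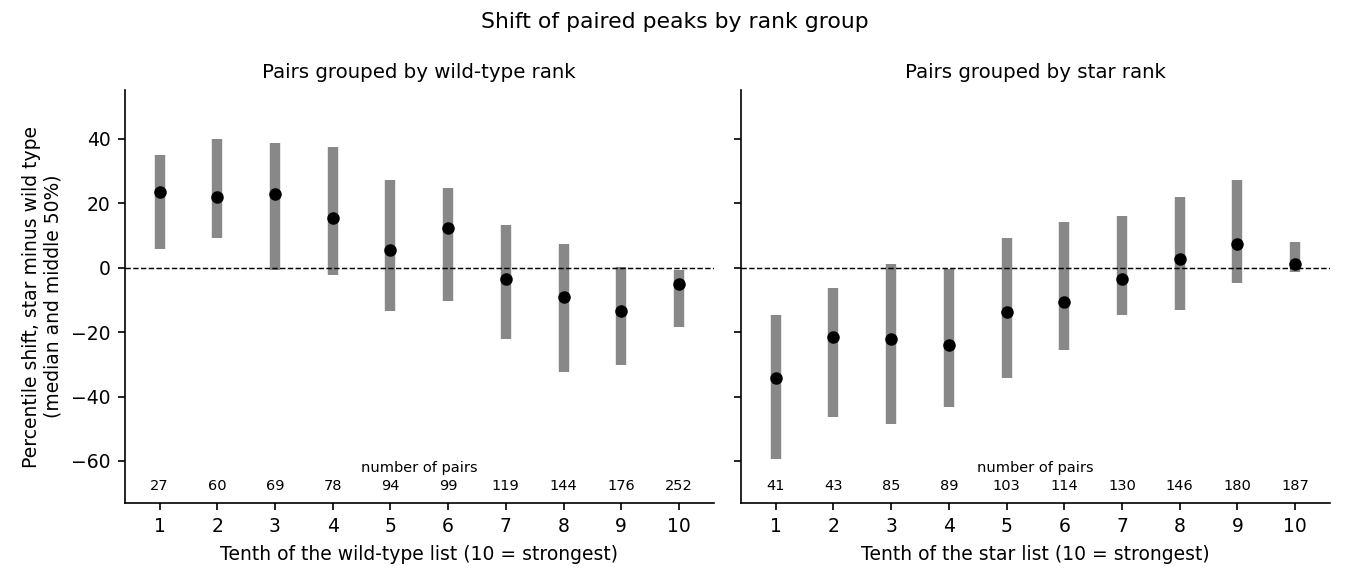
Percentile shift (star minus wild type, points; dots are medians and bars the middle 50% of pairs) for pairs grouped into 10 equal ranges of wild-type percentile (left) or of star percentile (right), with the number of pairs below. Medians run from 23.3 points in the weakest to -5.13 in the strongest wild-type range, and from -34.3 in the weakest to 1.07 points in the strongest star range.

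A few sites kept the top places. Of the long-scaffold pairs, the highest mean percentile belonged to the site at positions 118663401 to 118664176 of HiC_scaffold_2, with wild-type signals of 12.6 and 18.8 and star signals of 14.3 and 14.7. It ranked 10 of 3134 in the wild type and 5 of 2216 in star. The site at 18917402 to 18917936 of HiC_scaffold_7 ranked 15 and 7, and the site at 3808058 to 3808486 of HiC_scaffold_5 ranked 21 and 9. On the other scaffolds, the 3 leading pairs lay at the start of HiC_scaffold_48926, HiC_scaffold_45804 and HiC_scaffold_34455 and took ranks 1 to 3 in both lists. Their replicate signals were 29.6 to 39.9 in the wild type and 27.4 to 42.8 in star. The highest summed signal was 78.8 in the wild-type and 80.5 in the star list, whereas no peak on a long scaffold exceeded 42.1 and 29.0 in the same lists. The pair on HiC_scaffold_34455 also had the smallest shift among the strongest 10% of wild-type peaks, at -0.03 points.

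The sites with the largest negative shifts ranked high in the wild type. At positions 103908932 to 103909563 of HiC_scaffold_4, the replicate percentiles were 73.7 and 96.9 in the wild type and 27.7 and 4.15 in star, a shift of -86.2 points. The wild-type columns were far apart at this site, with signals of 5.45 and 12.3, but both stood above both star columns. The site at 75996946 to 75997484 of the same scaffold had percentiles of 85.4 and 92.9 in the wild type and 1.26 and 26.0 in star. Another site of HiC_scaffold_4, at 54269186 to 54269824, had a shift of -81.4 points, with 94.2 and 79.9 against 27.7 and 4.15. The next 3 were on HiC_scaffold_7 (57069489 to 57070131, -80.8 points) and HiC_scaffold_3 (130038352 to 130038973, -79.2 points, and 3102176 to 3102598, -76.4 points). All 6 peaks were narrower in star, with width differences of -378 to -116 bp. So were 85.6% of the 348 pairs with both star columns below, and 73.3% of all pairs. On the other scaffolds, the largest negative shifts were -85.1 points at 1745 to 2194 of HiC_scaffold_4259 and -67.7 points at 33319 to 34190 of HiC_scaffold_3180. The wild-type intervals of these last 2 sites are pieces of longer replicate peaks.

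The sites with the largest positive shifts ranked low in the wild type. The largest, 79.4 points, was at positions 3571 to 4027 of HiC_scaffold_1370, where the percentiles were 4.64 and 20.6 in the wild type and 63.1 and 96.7 in star. The star signals at this site, 4.98 and 10.1, were themselves far apart. The next outside the long scaffolds, at 496067 to 496531 of HiC_scaffold_2016, had closer columns, with 37.7 and 21.9 against 98.5 and 94.1. It is a piece of a longer replicate peak in both lists. On the long scaffolds, the site at 4721025 to 4721519 of HiC_scaffold_2 went from 47.4 and 10.2 to 73.9 and 93.8, a shift of 67.8 points. The site at 54381684 to 54382224 of HiC_scaffold_6 went from 34.8 and 13.8 to 75.1 and 87.0, a shift of 67.6 points. The remaining 4 were at 133459277 to 133459625 of HiC_scaffold_3, at 9354416 to 9355254 of HiC_scaffold_5, at 58168298 to 58169205 of HiC_scaffold_7 and at 60854476 to 60854797 of HiC_scaffold_2. Their shifts were 65.0, 63.5, 63.1 and 61.3 points in that order, and the last is a piece of a longer replicate peak in both lists. These 16 sites were chosen for their shifts, so their values are a description.

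**Figure D4:**
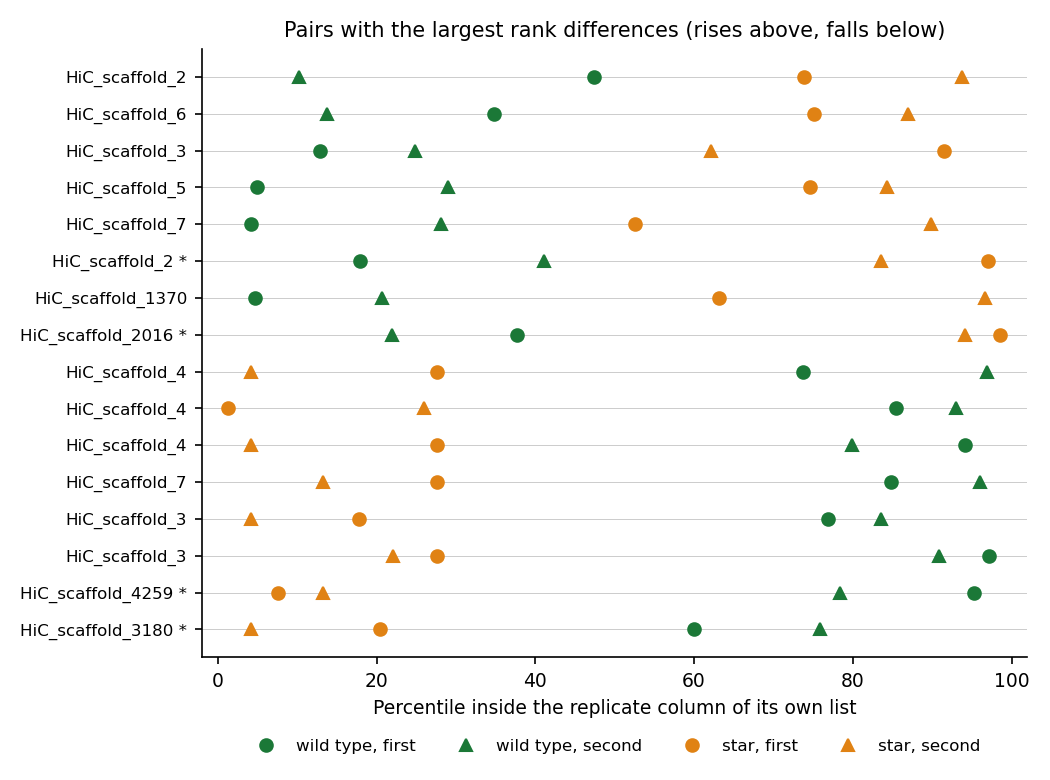
Percentiles of the 16 pairs with the largest positive (upper 8 rows) and negative (lower 8 rows) shifts among pairs with replicate columns apart, in each replicate column (x axis; green wild type, orange star, circles first and triangles second column). Rows follow the order of the text within each scaffold class, long scaffolds first, and an asterisk marks pieces of longer replicate peaks; the wild-type and star symbols do not overlap in any row because pairs were chosen that way.

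The scaffold classes overlapped in the median absolute shift. The 947 pairs of the long scaffolds had a median shift of -2.76 points (-4.08 to -1.39) and the 171 pairs of the other scaffolds one of 0.79 points (-0.49 to 5.74). The long-scaffold value depended on the ranking too, with 1.49 points (0.36 to 3.02) when the wild-type list had the star length and -4.72 points without the second star column. The median absolute shifts were 15.6 points (14.2 to 16.8) and 14.2 points (11.2 to 17.3). Both star columns were above both wild-type ones in 19.3% of pairs in either class, against 19.3% of all pairs. Both were below in 32.5% on the long scaffolds (29.5 to 35.6%) and in 23.4% elsewhere (17.3 to 30.5%), against 31.1% of all pairs. The intervals of these shares overlap, and the other scaffolds hold few pairs. These pairs lay on 157 scaffolds with at most 3 pairs each. Without the second wild-type column or without the second star column their median shift was -0.040 or -0.045 points, so its sign rested on single columns. The star list also held a larger share of its peaks on these scaffolds, 19.6% against 14.3% in the wild type.

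The intervals of the 7 long scaffolds overlapped. Their median shifts ran from -6.24 points on HiC_scaffold_3 (163 pairs, -10.1 to -1.41) to -0.52 points on HiC_scaffold_1 (169 pairs, -3.50 to 3.15). All 7 medians were negative in the ranking over whole lists, whose sign over all long scaffolds turned with the shorter wild-type list, and the intervals of HiC_scaffold_2 and HiC_scaffold_3 alone lay below 0. The median absolute shift was between 13.1 and 16.9 points on each. The direction of neighbouring pairs was compared on the long scaffolds, where 43.3% of pairs ranked higher in star. Of 44 neighbouring pairs at most 10 kb apart, 24 shifted in the same direction, or 54.5% (38.8 to 69.6%), and the share was 51.1% (45.0 to 57.2%) for 268 neighbours more than 1000 kb apart. Close neighbours include pieces of the same replicate peaks, which carry identical values. Without pieces, 17 of 37 close neighbours, or 45.9% (29.5 to 63.1%), shared a direction.

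Star peaks were narrower than their wild-type partners. The median listed width was 450 bp in the wild type and 376 bp in star, and the median difference within pairs, star minus wild type, was -64 bp (-73 to -54). The star peak was the narrower one in 820 pairs, or 73.3% (70.6 to 75.9%), the wider one in 293, and of equal width in 5. It lay wholly inside the wild-type peak in 557 pairs, whereas 132 wild-type peaks lay wholly inside the star peak. Over all peaks, paired or not, the median widths were 424.5 bp and 373.5 bp.

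The size of the width difference rested on 1 wild-type column. The median width of the paired peaks in single columns was 347 and 423 bp in the wild type and 321 and 323 bp in star. The wild-type columns thus differed from each other by a median of -57 bp, first minus second, about as much as the genotypes did, while the star columns differed by -2 bp. With the mean of the replicate widths in place of the listed width, the median difference was -58 bp and 74.6% of star peaks were narrower. On this measure, without the second wild-type column the median difference between genotypes was -19.75 bp and 58.9% of star peaks were narrower. Without the first it was -89 bp and 78.8%. Both star widths were under both wild-type widths in 449 pairs (40.2% of all pairs), and both were over them in 71 pairs (6.35%).

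Width differences varied with wild-type rank. In the wild type the median width was 369 bp in the weakest and 491.5 bp in the strongest 10% of the list, and in star the same pairs had medians of 383 and 402 bp. The median difference was 18 bp in the weakest group and -88.5 bp in the strongest. The value of the weakest group rested on 27 pairs, of which the 19 on long scaffolds had a median of -33 bp. Grouped by star rank, the differences were -72 bp in the weakest and -41 bp in the strongest 10%, so the order depended on which list formed the groups. Sites that ranked lower in star also tended to be narrower there, with rho of 0.35 between shift and width difference across pairs, in which rank and width come from the same peaks. The median difference was -108.5 bp in the 348 pairs with both star columns below and -12.5 bp in the 216 pairs with both above. The 243 pairs that shifted by at most 5 points had a median of -61 bp, and 79.4% of them were narrower in star. They ranked high, with a median wild-type percentile of 89.6 against 70.6 in all pairs.

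**Figure D5:**
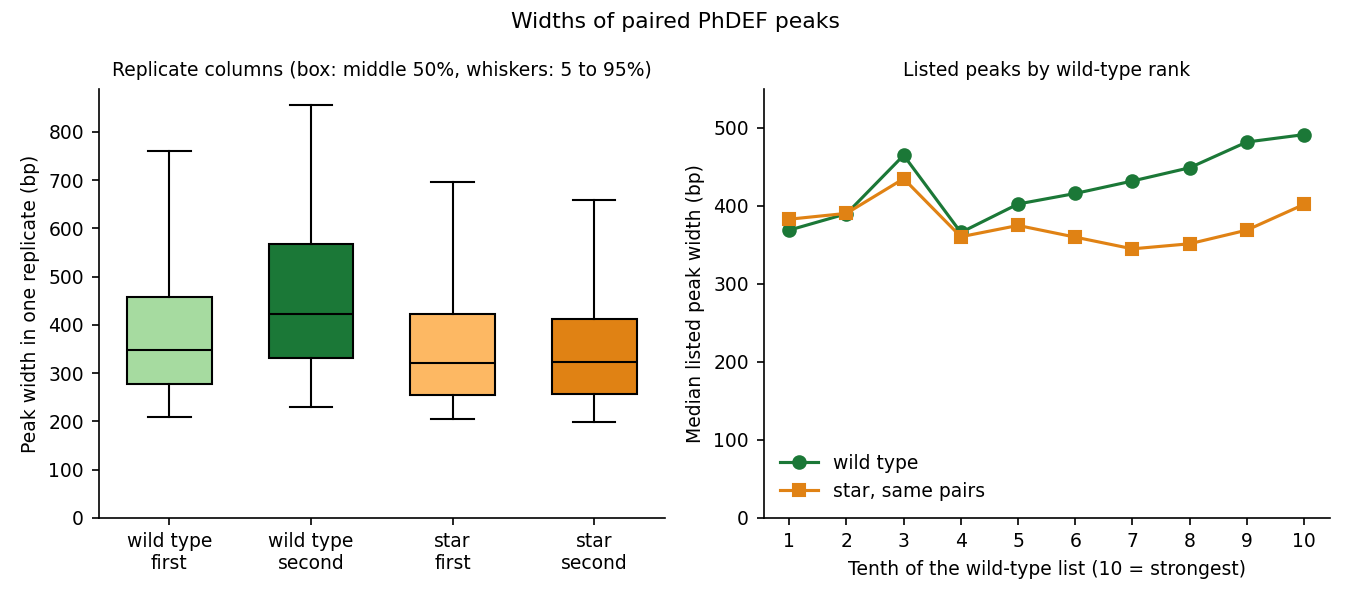
Left, width of the paired peaks in each replicate column (y axis, bp; line median, box middle 50%, whiskers 5 to 95% of pairs), with medians of 347 and 423 bp in the wild type and 321 and 323 bp in star. Right, median listed width (y axis, bp) of the same pairs in 10 equal ranges of wild-type percentile, where the strongest range has 491.5 bp in the wild type (green) and 402 bp in star (orange).

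The 3 largest gains of width in star were 1259, 1007 and 807 bp. The first was at positions 130333997 to 130334454 of HiC_scaffold_7, where the replicate widths were 458 and 329 bp in the wild type and 1683 and 1501 bp in star. The others were at 3632217 to 3632489 of HiC_scaffold_5 and at 18714 to 19025 of HiC_scaffold_7060. In all 3 the replicate widths of star were above both of the wild type, and the shifts were 45.9, 46.2 and 33.3 points. The replicate percentiles stood apart at the first 2 sites and overlapped at the third. The 3 largest losses were -1219, -1126 and -995 bp. The peak at 857 to 2502 of HiC_scaffold_2226 was 1646 bp wide in the wild type and 427 bp in star, and the one at 17439571 to 17441056 of HiC_scaffold_4 was 1486 bp and 360 bp. The third, at 97513140 to 97514421 of HiC_scaffold_1, was wide in the second wild-type column alone, with 302 and 1282 bp against 243 and 253 bp.

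After centring, the intervals of the replicate spread overlapped between the genotypes. The spread was taken as the absolute log2 ratio between the columns, first over second, after subtracting the median log2 ratio of the whole list. The wild-type median was 0.22 (0.20 to 0.24) and the star median 0.24 (0.22 to 0.25), and 90% of pairs were within 0.59 in both. Over whole lists the medians were 0.23 and 0.21. Without centring, the medians were 0.39 (0.36 to 0.41) in the wild type and 0.28 (0.26 to 0.30) in star, and the intervals did not overlap. Before centring, the first column was the lower one in most pairs. It was the higher of them in 145 wild-type and 319 star peaks. A centred spread over 1 on the log2 scale, which is a ratio over 2, occurred in 9 wild-type and 3 star peaks, and the 9 came from 7 distinct peaks of the replicates. The widest was at 130739054 to 130739983 of HiC_scaffold_1 in the wild type, with signals of 8.72 and 4.71, where the star signals were 5.36 and 5.70. In star it was at 24942 to 25693 of HiC_scaffold_4282, with 10.3 and 5.40, where the wild-type signals were 7.56 and 8.13.

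Replicate spread showed little relation between the lists. Across pairs, rho between the spread in the wild type and in star was 0.02. The scaffold classes differed in the wild type. There the median spread was 0.32 (0.28 to 0.36) on the other scaffolds and 0.21 (0.19 to 0.23) on the long ones, and the share of pairs with a higher first column was 28.1% and 10.2%. For star peaks the medians were 0.21 (0.16 to 0.26) and 0.24 (0.22 to 0.26), and the shares were 29.8% and 28.3%.

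Most paired sites were also listed in wico, the chimera with a wild-type epidermis and a mutant mesophyll. The wild-type peak was overlapped by a wico peak in 937 of the 1118 pairs and had no wico overlap in 181. That is 83.8% of paired wild-type peaks, beside 69.7% of all wild-type peaks (2183 of 3134), and paired peaks ranked higher than the list as a whole. The 181 sites were weaker in the wild type, with a median percentile of 35.3 against 76.5, and their median shift was 13.7 points (8.69 to 17.04) against -3.50 points (-5.04 to -2.18). Wild-type rank moved with this difference. Below the 60th wild-type percentile, the medians of sites with and without wico were 23.4 and 22.8 points up to the 20th percentile, 17.3 and 17.5 from there to the 40th, and 8.45 and 11.3 from the 40th to the 60th. Between the 60th and 80th percentiles they were -8.55 points over 234 pairs and 8.06 points over 29 pairs, and above the 80th they were -8.24 and -6.51 points over 415 and 13 pairs. Of the sites named for their shifts, all 8 negative ones had a wico overlap and 5 of the 8 positive ones had none. Wico overlap also varied with wild-type rank over all pairs. Up to the 20th percentile 38 pairs had it and 49 did not, and from there to the 40th 93 had it and 54 did not. Above the 80th percentile 415 had it and 13 did not. The named negative sites ranked high in the wild type and the positive ones low. At the 6 negative sites on long scaffolds, the wico percentile was 73.9 to 96.8, and at the others it was 82.2 on HiC_scaffold_4259 and 23.0 on HiC_scaffold_3180. The pairs named for the highest mean percentile in the wild type and star were also near the top in wico, at percentiles of 99.3 to 100.

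Shifts to star and to wico were set side by side. For the 933 wild-type peaks with a one-to-one partner in both chimeras, the median absolute shift was 14.4 points (13.4 to 15.6) to star and 7.48 points (6.54 to 8.41) to wico. The shifts share the wild-type list and were not tested against each other. Percentiles were taken inside lists of unlike length, with 3134 wild-type, 2216 star and 4276 wico peaks. Column against column, the differences to the wild type were 15.7 to 17.5 points in star and 9.08 to 11.1 points in wico, whereas the replicate columns differed by 8.73 points in the wild type, 13.9 in star and 7.02 in wico. Star thus had a lower replicate agreement than wico and larger shifts. Across these pairs, rho between the absolute shift and the centred log2 spread of the chimera was -0.07 in star and 0.07 in wico. This rho compares pairs inside a list and not the lists, so it does not address their difference in replicate agreement. The parts of replicate agreement and of list length in the shifts were not tested. The median width difference to the wild type was -71 bp in star and -17 bp in wico for these peaks. It depended on the wild-type column. Against the first it was -32 and -25 bp in the star columns and 30 and 25 bp in the wico columns. Against the second it was -103 and -98 bp in star and -32 and -39 bp in wico, so the direction in wico turned with the column.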

How the data were processed

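PhDEF ChIP-seq libraries of wild-type and star petals were analysed, 2 per genotype, and the wico list served for comparison. Bowtie2 2.4.2, MACS2 and bedtools are named in the submitters' processing notes, without roles. The genome build is not given in the sources used here. Per the file names, replicates were combined by IDR and input was removed. The series holds 1 input library, from the wild type, and none from star or wico. Lists were assigned to genotypes by the library numbers in their names.

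The deposited columns were identified from their values. The signal deposited by the authors equals the sum of the replicate signals in every row. The deposited −log10 IDR has a maximum of 5, and the deposited score is a function of it. Positions were converted to count from 1.

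Values of 2 genotypes were compared without a test. Pairing, percentiles (ties averaged), widths and replicate ratios were computed in pandas 2.3.3 and scipy 1.17.1 (Python 3.11.15). The pairing code was tested on simulated data, and it differed from bedtools 2.31.1 in 0 overlaps. The sites named are the pairs with the highest mean percentile (3 per scaffold class), the largest shifts with replicate columns apart (6 rises and 6 falls on long scaffolds, 2 and 2 elsewhere), the 3 largest gains and losses of width, the widest replicate spread per list, and the smallest shift among the strongest 10% of wild-type peaks. Members, rules and comparisons were chosen with earlier results of these data known. The alternatives were other overlaps, a stricter IDR, shortened lists, other rankings and widths, and omission of single columns.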

Additional observations from a re-analysis of the deposited data

How the results depend on the processing

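Omitting single replicate columns, restricting widths to pairs with nearly equal rank and omitting pieces of longer replicate peaks, also for neighbours, were chosen after seeing the data. Of 158 values recomputed under 18 alternatives, 109 stayed within the interval of the reported value (for the number of pairs, within 1.5 times), 42 moved beyond it and 7 changed sign. A reciprocal overlap of 50%, summits at most 100 bp apart, several partners allowed, percentiles inside each scaffold class, ranking by global IDR, mean replicate widths and the omission of pieces moved none of them beyond it.

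A global IDR of at most 0.02 left 671 pairs, a median shift of -3.29 points, a median absolute shift of 17.9 points, 36.4% of pairs over 25 points, 16.7% with both star columns above, and a median shift of -0.58 points on the other scaffolds. With the wild-type list at the star length, the median shift was 1.81 points (1.49 on the long scaffolds), the median absolute shift 17.001 points, the share over 25 points 37.3%, both star columns were above in 27.8% and below in 21.2% of pairs, rho was 0.45, and the wild-type spread was 0.20. With percentiles among paired peaks, the median shift was 0.22 points (-0.45 on the long and 6.08 on the other scaffolds), the median absolute shift 17.1 points, and the columns were apart in 24.2% above and 25.0% below. Ranking by the first column gave a median absolute shift of 17.8 points, 38.3% over 25 points, rho of 0.44 and a median shift of -0.86 points on the other scaffolds. Ranking by the second gave 17.8 points, 37.1% and rho of 0.44. Without centring, the median replicate spread was 0.39 in the wild type and 0.28 in star. Pairs with shifts of at most 5 points were narrower in star in 79.4% of cases. The cause of these moves was not tested, apart from the shorter lists, which hold fewer peaks by construction.

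Without 1 of the 4 columns in turn, the median shift was -3.84 to -1.22 points, -4.72 to -2.40 on the long scaffolds and -0.045 to 2.20 on the others. The median absolute shift was 15.9 to 17.2 points and the share over 25 points 34.5 to 37.1%. Both star columns were above in 30.1 to 34.5% of pairs and below in 41.1 to 45.6%, since fewer columns stand apart more easily by construction. From replicate widths, the median width difference was -89 to -19.75 bp, and 58.9 to 78.8% of star peaks were narrower. No paired analysis was possible, because the sample labels link no wild-type replicate to a star replicate. The replicate columns also carry no replicate numbers. Whether columns stood apart was not recomputed when ranking by IDR or by 1 column.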

Other observations

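Signals took few distinct values in star. The 2216 star peaks held 1044 distinct values in the first and 1047 in the second column, and the 3134 wild-type peaks held 1730 and 2099. The most frequent star value of the first column, 3.53, was shared by 145 peaks (6.54% of the list), and that of the second, 3.89, by 133 peaks. In the wild type the largest groups of equal values held 137 peaks (4.37%) and 79 peaks (2.52%). Percentiles of weak star peaks therefore have steps of several points. Of the 6 sites with the largest negative shifts on the long scaffolds, 4 had the same first-column star signal of 3.92, and 3 had the same second-column signal of 3.67.

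In 47 pairs the listed interval of at least 1 genotype was shorter than the span of its replicate peaks, in 44 for the wild type and in 29 for star. Among them, 17 pairs in 8 sets had the same replicate peaks, and so the same signals, as another pair. Without all 47 pairs the median shift was -1.92 points and the median width difference -64 bp.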
